A study of Mus musculus with 12 samples.

Results

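Androgenetic haploid embryonic stem cells (ESC) are mouse pluripotent cells that carry a single chromosome set, derived from sperm. The comparison described here sets 7 small RNA libraries of 3 such lines against 2 libraries of R1, a diploid mouse ESC line, and so uses 9 of the 12 libraries of the series. The lines were A129-2 (2 libraries), A129-6 (3 libraries) and A129-17 (2 libraries), chosen by their column labels and weighed equally. All 4 lines were labelled wild type (WT) with sorting as the treatment. The protocols in the labels describe derivation of the haploid lines in serum replacement medium and growth in serum medium, both with LIF, the inhibitors PD0325901 and CHIR99021, and periodic Hoechst sorting for haploid cells. The sources used here do not give the culture of R1 or the passage of any line. Replicates were independently sorted samples, with nothing said of separate cultures, so a p-value reflects only how far libraries of a line vary, which may be technical variation. R1 was the only diploid line, so ploidy, parental origin of the genome, sex chromosomes and line cannot be told apart.

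A miRNA is cut from a hairpin transcript by Drosha and then Dicer, and either arm of the hairpin, named 5p or 3p, can be loaded into an Argonaute protein. The loaded strand finds messenger RNAs mainly through its seed, bases 2 to 8 from its 5′ end, so miRNAs with a common seed share many targets. Mouse ESC are known for the miR-290 cluster, which dominates their miRNA pool and promotes rapid cycling, while let-7 and many other families rise as cells differentiate.

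The following mature sequences carry the results, from RefSeq on build GRCm38.p6, written 5′ to 3′ with the seed in capitals. The first set was lower in all 3 haploid lines.
miR-19b-3p: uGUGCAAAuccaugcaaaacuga
miR-136-3p: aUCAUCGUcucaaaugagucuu
miR-96-5p: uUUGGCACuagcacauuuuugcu
miR-101a-3p: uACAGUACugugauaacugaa
miR-148a-3p: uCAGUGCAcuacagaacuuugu
miR-450b-5p: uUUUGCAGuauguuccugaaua
The next set was higher in all 3 lines.
miR-504-5p: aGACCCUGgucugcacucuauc
miR-214-3p: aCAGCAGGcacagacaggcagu
miR-501-3p: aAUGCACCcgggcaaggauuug
miR-676-3p: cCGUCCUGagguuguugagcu
miR-483-5p: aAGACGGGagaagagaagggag
A further set is shown because each member moved against the base composition trend described below.
miR-203-3p: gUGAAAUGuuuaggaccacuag
miR-181c-3p: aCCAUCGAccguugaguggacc
miR-210-3p: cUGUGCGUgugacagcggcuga
The arms of 3 hairpins changed places or shares.
miR-350-5p: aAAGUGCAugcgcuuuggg
miR-350-3p: uUCACAAAgcccauacacuuuc
miR-455-5p: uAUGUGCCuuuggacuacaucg
miR-455-3p: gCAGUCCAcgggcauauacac
miR-433-5p: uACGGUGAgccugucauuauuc
miR-433-3p: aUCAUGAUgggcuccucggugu
Finally, 2 seed groups are shown, of which the first held members that moved apart and the second held members that moved together.
miR-290a-5p: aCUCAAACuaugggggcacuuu
miR-292a-5p: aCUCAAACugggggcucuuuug
miR-293-5p: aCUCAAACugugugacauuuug
miR-125a-5p: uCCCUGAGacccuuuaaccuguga
miR-125b-5p: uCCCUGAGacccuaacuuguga
miR-351-5p: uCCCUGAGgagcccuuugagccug

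Of 1366 rows with a mouse miRBase name, 1319 had a count in the ESC libraries and 735 passed the filter on low counts. These 735 held 99.98% of the counts, and the largest total of a row left out was 56. Library totals ran from 3709786 to 9176080 counts. The most abundant row, miR-292a-5p, took 35.6% to 56.9% of counts in haploid libraries and 14.8% to 15.1% in R1, and the TMM scaling factors ran from 0.70 (A129-6 replicate 3) to 1.38 (A129-2 replicate 1). Levels are given as normalised CPM, the count relative to a library size scaled by TMM, and sums over a list as CPM of the total count, without that scaling. The miR-290 cluster, the defining marker of ESC, summed to 641478 to 771239 CPM of total counts in haploid libraries and 491072 to 502224 in R1. Markers of mesenchymal or feeder cells were present in both kinds of cell, at a summed 6512 to 29194 CPM of total counts in haploid libraries and 16644 to 18410 in R1. Among the other defining markers, miR-451a of red blood cells lay between 11.4 and 113 CPM in haploid libraries and at 4.10 and 4.83 in R1, so no library was at 0 for it. miR-124 of neurons went the other way, with log2 differences between haploid lines and R1 of -1.72 for the 5p arm and -0.82 for the 3p arm. The level of miR-122, of liver, is not given here.

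The haploid lines differed from R1 in 522 of the 735 miRNAs, or 71% (edgeR's quasi-likelihood test, Benjamini-Hochberg adjusted p under 0.05). In the mean of the 3 lines, 257 were higher (35%) and 265 lower (36.1%), 477 of them by at least 2-fold and 105 by at least 16-fold. A difference in the same direction was called in every line for 195 higher (26.5%) and 188 lower (25.6%) miRNAs, which are called shared below. Taken alone, A129-2 had 31.3% higher and 29.4% lower, A129-6 had 35% and 32.8%, and A129-17 had 34.3% and 32.2%. Of the shared changes, 186 and 178 differed at least 2-fold in each line. No miRNA was called in opposite directions in different lines, though the 3 comparisons share the R1 libraries. All 7 haploid libraries lay on one side of both R1 libraries for 524 miRNAs (71.3%), including 192 of the 195 shared rises and all 188 shared falls. The calls were spread over levels, at 51.4% of the 280 miRNAs under 10 CPM and 91.0% of the 155 between 100 and 1000 CPM. Of the 317 miRNAs outside the families and marker lists used below, 119 were higher and 74 lower. The counts per list below stand beside the 35% higher and 36.1% lower of all 735.

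**Figure D1:**
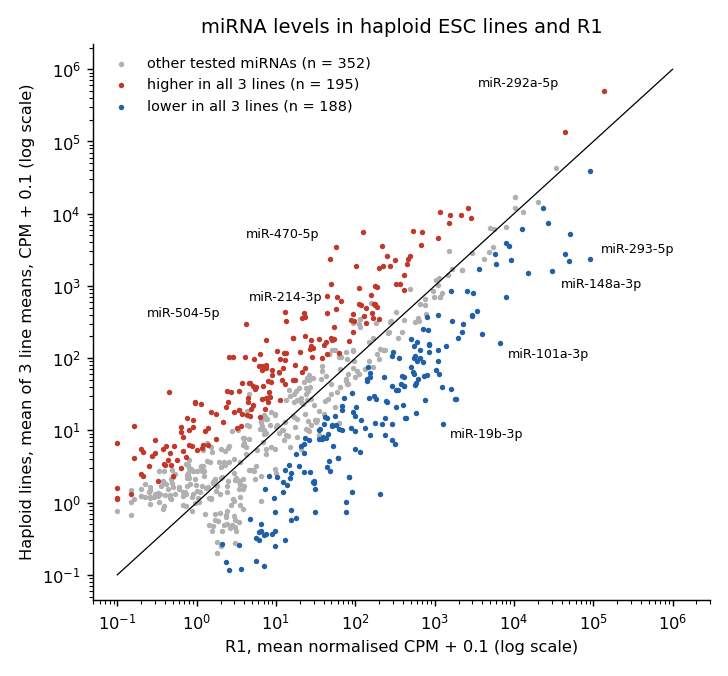
Mean normalised CPM of the 735 tested miRNAs in R1 (x axis, mean of 2 libraries) and the haploid lines (y axis, mean of 3 line means), both on log scales after adding 0.1, with the line of equality. The 195 miRNAs higher in all 3 lines lie above the line and the 188 lower ones below it, over the whole range of levels.

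Differences followed the base composition of the miRNA. Across the 609 tested miRNAs with a RefSeq sequence, Spearman's rho between GC content and the log2 difference was 0.535, and it was 0.548 over the 190 with at least 100 CPM. These points share the same 9 libraries and are a description only. Of 38 miRNAs under 35% GC, 30 were lower and 1 was higher, with a median log2 difference of -3.05. Of 61 at 65% GC or more, 4 were lower and 35 higher, with a median of 1.87. Between 45% and 55% GC, 71 were higher and 96 lower of 242, with shared rises and falls of 53 and 59 and a median of -0.22. Within libraries, rho between GC and the deviation from the mean was -0.541 and -0.505 in the R1 libraries and 0.210 to 0.502 in the 7 haploid ones. Since all R1 libraries fall on one side, a composition effect of the libraries and a difference between the cells cannot be told apart. Where a sequence is held, the log2 differences of single miRNAs below are therefore given also as GC-adjusted values. These come from a fit with an offset per library that reduces the trend without ending it. With the offset rho was 0.117, and the median was -0.89 between 35% and 45% GC and 0.74 between 55% and 65% GC. That fit called 404 of 609 miRNAs (191 higher, 213 lower) against 435 without the offset, and 334 were called in both in the same direction and 10 in opposite directions. Of the shared changes, 108 rises and 105 falls were shared in both fits, out of 152 and 170 without the offset. Among the shared changes named below, miR-141-3p, miR-148b-3p, miR-149-5p, miR-296-3p, miR-298-5p, miR-335-3p, miR-350-3p, miR-369-3p and miR-1981-5p were called with the offset in the mean of the lines but not in every line.

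**Figure D2:**
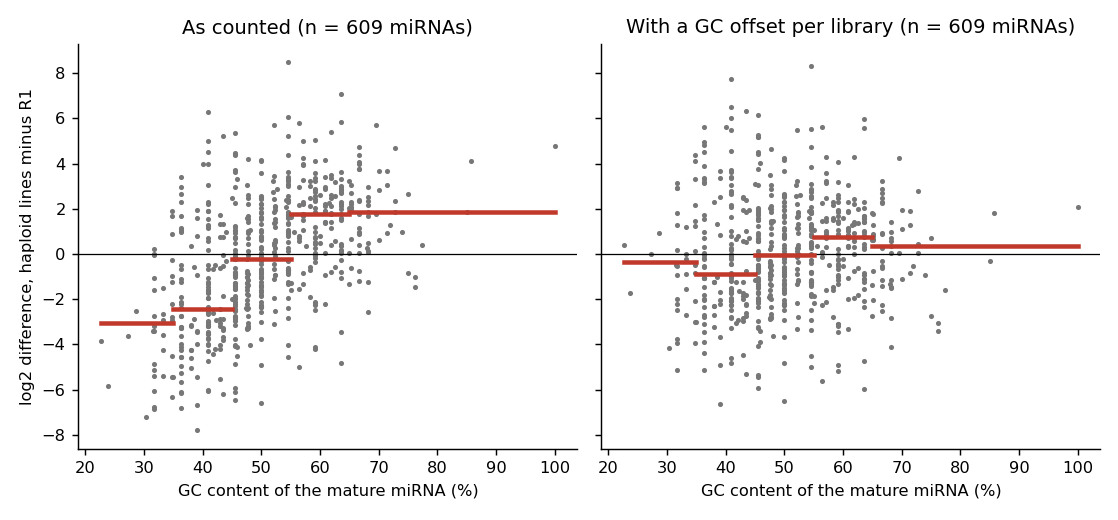
The log2 difference between haploid lines and R1 (y axis) against the GC content of the mature miRNA (x axis, percent), as counted (left) and with a GC offset per library (right). Each point is 1 of 609 miRNAs and each bar is the median of a GC range, which runs from -3.05 to 1.87 on the left and from -0.89 to 0.74 on the right.

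The shared rises with the largest differences included several miRNAs of the X chromosome. miR-504-5p (GRCm38.p6 chrX:59097705-59097726, minus strand), which lies in an intron of Fgf13 and is reported to repress p53, was at 457 and 404 CPM in A129-2. Its level was 143, 175 and 166 for A129-6 and 334 and 261 for A129-17, against 3.85 and 4.43 in R1. Every haploid library was far above R1, and the lines themselves stood apart, with A129-2 highest and A129-6 lowest. The mean log2 difference was 6.04 (SE 0.35, adjusted p = 1.13e-09), or 65.8-fold, and 5.52 GC-adjusted. miR-501-3p, of an X-linked group in an intron of Clcn5, was at 630 and 930 CPM in A129-2, 828, 739 and 1496 for A129-6 and 1829 and 930 for A129-17, and at 45.5 and 54.0 in R1. The groups did not overlap, with a log2 difference of 4.37 (SE 0.42, adjusted p = 2.47e-07; GC-adjusted 3.86). miR-676-3p, also X-linked, was at 517 to 996 CPM in the haploid libraries and 39.0 and 48.3 in R1 (log2 4.00, SE 0.29, adjusted p = 1.25e-08; GC-adjusted 3.23).

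A further X-linked cluster, known for its expression in testis, rose in 16 of 24 tested members and fell in 4. Its median log2 difference was 1.92, beside 0.21 over all 735. The counts were 20 and 0 with the GC offset. miR-470-5p was at 1150 and 1579 CPM in A129-2, 4376, 4347 and 7768 for A129-6 and 1861 and 5220 for A129-17, against 57.3 and 55.8 in R1. Here A129-2 was the lowest line, and no haploid library came near R1 (log2 5.72, SE 0.49, adjusted p = 7.02e-08; GC-adjusted 5.50). miR-465a-3p (log2 5.34, GC-adjusted 6.14), miR-878-3p (5.22, GC-adjusted 4.71) and miR-743a-5p (5.01, GC-adjusted 6.48) rose in all 3 lines as well. The most abundant falling member, miR-881-3p, had a log2 difference of -1.06 (SE 0.31, adjusted p = 0.00721) that turned to 1.83 when GC-adjusted. Outside this cluster, 21 of 45 miRNAs with their only locus on the X chromosome were higher and 11 lower, with a median of 1.07. miRNAs with their only locus on an autosome split into 150 higher and 204 lower of 505, with a median of -0.17. Without the Dlk1-Dio3 list these autosomal counts were 131 and 151 of 414, with a median of 0.08. Whether the X-linked group stands apart was not tested.

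Among autosomal rises, miR-214-3p, made with miR-199a from the long noncoding RNA Dnm3os and known from mesenchyme, was at 840 and 305 CPM in A129-2, 553, 400 and 312 for A129-6 and 269 and 368 for A129-17. R1 held 13.8 and 12.0, so the groups were separate in every library (log2 5.04, SE 0.47, adjusted p = 1.69e-07; GC-adjusted 4.07). Its neighbour miR-199a-5p had 77.0 to 180 CPM in haploid libraries and 91.4 and 94.6 in R1, which overlap (log2 0.38, SE 0.30, adjusted p = 0.261; GC-adjusted 0.15). Over the whole mesenchymal list, 4 of 17 members rose and 8 fell, beside 35% and 36.1% of all 735 miRNAs. In that list miR-143-3p was at 6364 to 18084 CPM in haploid libraries and 12462 and 13592 in R1. The part of mesenchymal cells in the rise of miR-214-3p was not tested.

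miR-203-3p, known for promoting differentiation of the epidermis, was at 155 and 115 CPM in A129-2, 96.4, 129 and 241 for A129-6 and 266 and 208 for A129-17, and at 6.46 and 8.27 in R1. It rose although only 40.9% of its bases are G or C, and its log2 difference of 4.53 (SE 0.44, adjusted p = 2.98e-07) became 6.04 when GC-adjusted. Its row shares the locus with miR-203b on the opposite strand, and whether counting used the strand is not stated in those sources, so reads of the pair cannot be told apart. miR-466h-3p, from the large miRNA block in an intron of the imprinted gene Sfmbt2, had a log2 difference of 4.57 (SE 0.35, adjusted p = 1.94e-08). In that block 34 of 54 tested members rose and 2 fell, with a median of 1.52. Members differ by few bases, so the values of single members are uncertain. Only 3 of the 54 have a sequence here, so a GC check of the block is void.

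miR-483, in an intron of Igf2, a gene expressed from the paternal chromosome, was detected almost only in the haploid lines. It falls outside the naming rule and was chosen after its values were seen. miR-483-5p (GRCm38.p6 chr7:142654968-142654989, minus strand) had 0 counts in both R1 libraries and 266 over the 7 haploid libraries, each with a count, at 2.95 to 10.2 CPM. Set against a floor of 3 counts over R1, that is at least 36.0-fold higher. The other arm, miR-483-3p, had 217 haploid counts and 2 in R1, a pooled ratio of 44.1 (95% exact interval 12.0 to 366, counting error only). Further imprinted hosts gave mixed values. miR-298-5p and miR-296-3p, of the Nespas region, rose by log2 2.08 (SE 0.27, adjusted p = 6.01e-06) and 2.34 (SE 0.28, adjusted p = 2.81e-06), falling to 0.66 and 0.72 when GC-adjusted. miR-335-3p, of the paternally expressed gene Mest, was at 41.8 to 210 CPM in haploid libraries and 1120 and 1070 in R1, a log2 difference of -3.25 (SE 0.25, adjusted p = 1.76e-08; GC-adjusted -1.05).

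**Figure D3:**
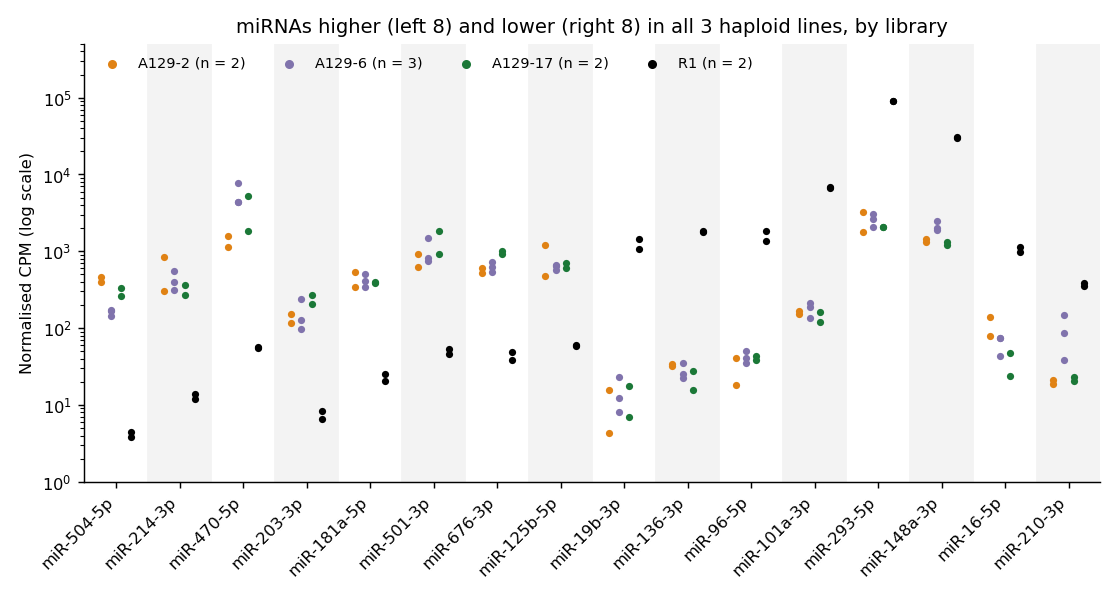
Normalised CPM (log scale) of 16 miRNAs called in all 3 haploid lines, with each point a library, coloured by line. The left 8 are higher and the right 8 lower in the haploid lines, and for none of the 16 does a haploid library reach the R1 libraries.

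Among the shared falls was miR-19b-3p, a member of the miR-17/miR-92 cluster. It was at 4.30 and 15.8 CPM in A129-2, 12.4, 8.17 and 23.3 for A129-6 and 17.4 and 7.0 for A129-17, against 1455 and 1082 in R1. No haploid library exceeded 23.3 CPM, and the log2 difference was -6.70 (SE 0.41, adjusted p = 2.07e-09; GC-adjusted -4.92). In the cluster and its paralogs 16 of 25 members fell and 8 rose. miR-20a-5p (log2 -3.44, SE 0.30, adjusted p = 8.14e-08; GC-adjusted -1.70) and miR-17-5p (-2.75, SE 0.31, adjusted p = 1.49e-06; GC-adjusted -2.35) fell, chosen here after their values were seen. miR-92a-3p, also of the cluster, rose from 2558 and 2685 CPM in R1 to between 10653 and 14425 in haploid libraries (log2 2.21, SE 0.25, adjusted p = 1.16e-06; GC-adjusted 1.44). miR-19b-3p has 2 loci, and miR-92a also comes from more than 1 hairpin, so their counts cannot be assigned to a single transcript.

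Several shared falls came from the Dlk1-Dio3 region of chromosome 12, a miRNA cluster known to be expressed from the maternal chromosome. miR-136-3p was at 32.6 and 34.5 CPM in A129-2, 25.5, 34.7 and 22.1 for A129-6 and 27.4 and 15.5 for A129-17, and at 1862 and 1805 in R1. This 67.7-fold fall (log2 -6.08, SE 0.24, adjusted p = 2.83e-11; GC-adjusted -3.87) was nearly equal in the 3 lines. miR-3071-5p has almost the same values and lies antisense to miR-136, so these rows cannot be told apart. miR-376c-3p (log2 -7.51, SE 0.48, adjusted p = 2.92e-09) and miR-369-3p (-5.84, SE 0.41, adjusted p = 8.01e-09; GC-adjusted -1.72) also fell. Of 95 tested members 55 fell and 21 rose, with a median of -1.44. Yet miR-127-3p, the most abundant member, stood at 9841 to 23896 CPM in haploid libraries and 9512 and 10841 in R1, which overlap (log2 0.69, SE 0.27, adjusted p = 0.0341; GC-adjusted -0.27). miR-433-3p, at 1944 to 3045 CPM against 449 and 482 in R1, rose in every line (log2 2.35, SE 0.26, adjusted p = 1.04e-06; GC-adjusted 1.83).

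miR-101a-3p, which represses the histone methyltransferase Ezh2, was at 153 and 168 CPM in A129-2, 190, 210 and 137 for A129-6 and 163 and 119 for A129-17, against 6589 and 6823 in R1. The fall was 42.1-fold (log2 -5.40, SE 0.22, adjusted p = 2.83e-11), and the GC-adjusted log2 difference was -2.71. All 6 tested members of the miR-101 and miR-26 families fell, the latter also known regulators of Ezh2. miR-26a-5p had 4858 to 7151 CPM in haploid libraries and 12765 and 12747 in R1 (log2 -1.04, SE 0.20, adjusted p = 0.000236). Its direction turned with the GC offset, to 0.45 (adjusted p = 0.0656), and with it 1 of the 6 members was higher and 4 lower.

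The miR-148/miR-152 family, known to repress the DNA methyltransferase Dnmt1, fell in all 6 tested rows and in each of the 3 lines, with a median log2 difference of -3.09, and 6 of 6 were still lower with the GC offset (median -2.43). miR-148a-3p was at 1312 and 1440 CPM in A129-2, 2039, 2490 and 1911 for A129-6 and 1303 and 1210 for A129-17, against 30314 and 29604 in R1. The haploid levels were 19.3-fold lower (log2 -4.27, SE 0.19, adjusted p = 8.54e-11; GC-adjusted -2.78), and the highest of them lay far under R1. miR-148b-3p (log2 -2.49, GC-adjusted -1.01) and miR-152-3p (-3.32, GC-adjusted -2.87), on other chromosomes, fell with it.

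The miR-15/miR-16/miR-195 family, which represses cyclins and other drivers of the G1 phase, fell in 10 of 11 rows and rose in none, with a median of -3.97. miR-16-5p was at 23.7 to 138 CPM in haploid libraries and 1124 and 988 in R1 (log2 -4.07, SE 0.28, adjusted p = 5.44e-09; GC-adjusted -3.29). miR-15b-5p, with the same seed, had 135 to 291 CPM in haploid libraries and 165 and 168 in R1, so the groups overlapped (log2 0.18, SE 0.28, adjusted p = 0.573). With the GC offset it was the exception that rose (1.66, adjusted p = 9.98e-05), while 9 members fell.

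miR-21a-5p and miR-7a-5p were among the 5 most abundant miRNAs of R1. miR-21a-5p, a miRNA of growth signalling, was at 5014 and 5053 CPM in A129-2, 4980, 4375 and 5309 for A129-6 and 5932 and 5343 for A129-17, against 52007 and 48441 in R1. Haploid libraries agreed closely with each other, at 9.70-fold below R1 (log2 -3.28, SE 0.19, adjusted p = 1.13e-09; GC-adjusted -1.06). miR-7a-5p, which binds the circular RNA Cdr1as and is known from neurons and endocrine cells, had 1133 to 4064 CPM in haploid libraries and 56388 and 43371 in R1 (log2 -4.52, SE 0.37, adjusted p = 4.70e-08; GC-adjusted -2.07). miR-375-3p, a miRNA of pancreatic islets, rose slightly (log2 0.98, SE 0.36, adjusted p = 0.0233).

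miR-210-3p, the classic miRNA of the hypoxia response, was at 18.7 and 21.1 CPM in A129-2, 149, 87.1 and 38.8 for A129-6 and 23.2 and 20.4 for A129-17, against 352 and 391 in R1. It fell in all lines (log2 -3.44, SE 0.33, adjusted p = 2.18e-07), most in A129-2 and A129-17, although 63.6% of its bases are G or C, and its GC-adjusted difference was -4.74. miR-135b-5p was at 26.4 to 47.2 CPM in haploid libraries and 1313 and 1132 in R1 (log2 -4.97, SE 0.22, adjusted p = 7.03e-11). miR-96-5p, of the miR-183 cluster needed by sensory cells, was at 18.2 to 50.4 CPM against 1833 and 1352 in R1 (log2 -5.42, SE 0.27, adjusted p = 2.13e-10; GC-adjusted -3.65). In that cluster 5 of 6 members fell and none rose, and in the miR-200/miR-141/miR-429 family, known for keeping cells epithelial, 7 of 8 fell. miR-200b-3p, the most abundant of these, fell by 1.92 on the log2 scale (SE 0.20, adjusted p = 7.20e-07), but its GC-adjusted difference was 0.29 (adjusted p = 0.261).

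Other abundant families mostly fell. In the miR-30 family 9 of 11 rows fell and 1 rose. Its most abundant member, miR-30d-5p, had 9236 to 20392 CPM in haploid libraries and 10989 and 9385 in R1, with no call (log2 0.24, SE 0.32, adjusted p = 0.508). miR-30a-5p fell by 1.28 on the log2 scale (SE 0.24, adjusted p = 0.00022), a call that ended with the GC offset (-0.49, adjusted p = 0.0788). The miR-23/miR-27/miR-24 clusters fell in 8 of 10 rows, led by miR-27b-3p, at 1049 to 2503 CPM against 5664 and 6109 in R1 (log2 -1.58, SE 0.26, adjusted p = 8.00e-05; GC-adjusted -1.12). In the miR-130/miR-301 family 5 of 8 fell and none rose. The miR-10/miR-196 families, which lie within the Hox clusters, fell in 5 of 8 rows and rose in 1, and miR-10b-5p fell by 3.36 on the log2 scale (SE 0.29, adjusted p = 7.09e-08; GC-adjusted -2.26) while miR-10a-5p rose by 0.75 (SE 0.29, adjusted p = 0.0321; GC-adjusted 1.86). With the GC offset that balance was 2 higher and 2 lower. None of the 4 tested members of the miR-29 family, which represses de novo DNA methyltransferases, was called (edgeR), with 1 at an unadjusted p under 0.05, and DESeq2 called 0. The most abundant, miR-29a-3p, had 28.2 to 48.8 CPM against 22.7 and 24.7 in R1 (log2 0.69, SE 0.31, adjusted p = 0.0582), and GC-adjusted it was called higher (2.19, adjusted p = 7.62e-05). Of the 4, 2 were higher with the GC offset.

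Families that rose were fewer. The miR-125 family, the vertebrate relatives of lin-4, rose in 5 of 5 rows and in every line, with a median of 2.85, and in 5 of 5 with the GC offset (median 2.56). miR-125b-5p was at 1208 and 483 CPM in A129-2, 668, 573 and 637 for A129-6 and 614 and 713 for A129-17, against 60.3 and 58.4 in R1. The groups were separate, and the log2 difference of 3.57 (SE 0.36, adjusted p = 4.59e-07) was 3.67 when GC-adjusted. The miR-99/miR-100 family, which shares transcripts with miR-125 and let-7, rose in 3 of 4 rows. miR-100-5p was at 360 to 767 CPM against 113 and 122 in R1 (log2 2.21, SE 0.32, adjusted p = 1.92e-05; GC-adjusted 2.31). miR-99b-5p, the most abundant, was not called (0.36, SE 0.22, adjusted p = 0.159) and turned to -0.94 when GC-adjusted. Both main strands of the X-linked pair miR-221 and miR-222, which repress the cell cycle inhibitor p27, rose, miR-221-3p by 1.04 on the log2 scale (SE 0.25, adjusted p = 0.00202; GC-adjusted 1.46).

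The miR-181 family, known from lymphocyte development, was split between its members. miR-181a-5p was at 545 and 345 CPM in A129-2, 506, 347 and 412 for A129-6 and 388 and 398 for A129-17, against 20.5 and 25 in R1. This was an 18.4-fold rise in nearly equal measure in the lines (log2 4.2, SE 0.33, adjusted p = 3.15e-08; GC-adjusted 4.63). miR-181c-3p, from a chromosome 8 hairpin, fell from 377 and 422 CPM in R1 to between 7.05 and 35.1 (log2 -4.22, SE 0.35, adjusted p = 4.68e-08), and to -5.17 when GC-adjusted. miR-181d-5p of the same transcript was not called (-0.54, SE 0.28, adjusted p = 0.0880; GC-adjusted 0.54). The miR-28/miR-151/miR-708 family also split. miR-151-3p rose from 1099 and 1226 CPM to between 6367 and 14980 (log2 3.14, SE 0.33, adjusted p = 6.73e-07), and miR-708-3p fell from 767 and 815 to between 52.9 and 68.5 (log2 -3.76, SE 0.20, adjusted p = 4.60e-10; GC-adjusted -2.97).

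The X-linked cluster of miR-322, miR-503, miR-351, miR-450 and miR-542, whose hairpins neighbour each other, held 4 members that rose and 5 that fell of 11. Over all 735 miRNAs the shares were 35% and 36.1%. miR-351-5p was at 299 to 850 CPM in haploid libraries and 68.0 and 64.2 in R1 (log2 3.20, SE 0.42, adjusted p = 6.51e-06; GC-adjusted 1.98). miR-450b-5p was at 3.50 to 12.1 CPM against 314 and 267 (log2 -5.40, SE 0.27, adjusted p = 2.13e-10; GC-adjusted -2.49), and miR-542-3p at 7.47 to 25.9 against 605 and 558 (log2 -5.11, SE 0.32, adjusted p = 2.48e-09; GC-adjusted -2.23). These last members hold 31.8% GC, and miR-351-5p 62.5%.

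miRNAs made without Drosha or without Dicer, such as mirtrons spliced from short introns and 5′ capped hairpins, were listed together. Of 13 tested rows 10 were higher and none was lower, with a median of 2.33. With the GC offset 5 of 12 were higher and the median was 0.98. Among them miR-1981-5p, a mirtron product and the most abundant, varied widely, at 2534 and 2646 CPM in A129-2, 2415, 2028 and 8301 for A129-6 and 16196 and 4824 for A129-17, against 528 and 526 in R1 (log2 3.21, SE 0.58, adjusted p = 0.000169; GC-adjusted 2.31). Haploid libraries of the same line differed by more than 3-fold there, and the high values were those of the libraries with low TMM factors, A129-6 replicate 3 and A129-17 replicate 1. The list also holds both rows of miR-668, which belongs to the Dlk1-Dio3 region.

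**Figure D4:**
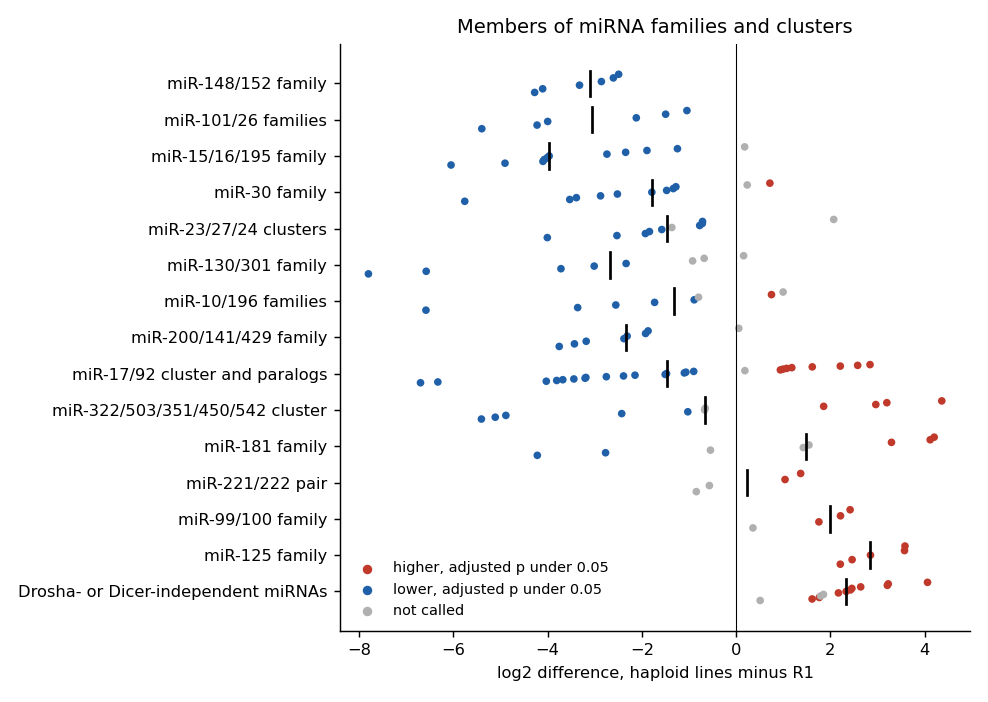
The log2 difference between haploid lines and R1 (x axis) of the tested members of 15 miRNA families and clusters (y axis), each point a miRNA, coloured by call, with the list median as a black bar. All members of miR-148/miR-152 and of miR-101/miR-26 lie below 0 and all of miR-125 above, while the miR-17/miR-92, miR-181 and miR-322 lists spread on both sides.

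Markers of other cell types moved in both directions, as did the 735 tested miRNAs, of which 35% were higher and 36.1% lower. In the blood and endothelial list 5 of 10 rose and 5 fell, and its summed level was 413 to 939 CPM of total counts in haploid libraries and 787 to 827 in R1. In the differentiated lineage list 6 of 14 rose and 5 fell, and its summed level was 872 to 1562 CPM of total counts against 4026 to 4050. The neural miR-9-5p, listed beside the antisense miR-9b-3p with nearly the same counts, was at 345 to 438 CPM against 3060 and 2865 and fell by 2.93 on the log2 scale (SE 0.19, adjusted p = 2.85e-09), but its GC-adjusted difference was -0.47 (adjusted p = 0.0503). The muscle miR-1a-3p, at 99.1 to 284 CPM against 16.3 and 16.2, rose (log2 3.49, SE 0.42, adjusted p = 2.52e-06), but miR-1b-5p has nearly the same counts in every library, so these reads may be listed under both names. The part of such cells in other results was not tested. The cluster of miR-302 and miR-367, which marks primed pluripotent cells, fell in 5 of 8 rows and rose in 1. Under the GC offset 0 fell and 3 rose.

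Counts of single arms can differ from the hairpin's total, so arm usage was tested within hairpins, where library scaling cancels. Of 213 hairpins with both arms tested, 131 changed the ratio of their arms (61.5%; edgeR's test of differential usage, adjusted p under 0.05), 62 toward 5p and 69 toward 3p. At adjusted p under 0.01, a count added after the data were seen, 104 remained called. The 5p shares of the groups did not overlap in 121 of all 213 hairpins. Of these, 115 were among the 131 called from the same counts, so this is a description and no further support. Leaving out an R1 library lowered the count, to 81 without R1 replicate 1 and 82 without R1 replicate 2. Both arms were called in the same direction in 98 hairpins and in opposite directions in 26. The major arm differed between R1 and the haploid lines in 36 hairpins, 30 of them called. The arm difference followed the difference in GC between arms, with rho of 0.538 over 167 hairpins. It was 0.613 over the 94 of these with both arms at 10 or more mean CPM.

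miR-350 switched its major arm. The 5p arm made up 21.5% and 28.7% of its counts in R1, and in A129-2 the share was 92.7% and 92.8%. In A129-6 it was 93.2%, 93.6% and 99.2%, with 99.3% and 98.5% in A129-17. Each haploid library was thus led by the 5p arm and each R1 library by the 3p arm, an arm difference of log2 6.44 (SE 0.53, adjusted p = 1.83e-10). As single rows, miR-350-5p had a log2 difference of 2.89 (GC-adjusted 2.60) and miR-350-3p of -3.55 (GC-adjusted -2.08), so the arms moved apart in both fits. miR-455 switched the other way, with a 5p share of 89.6% and 94.6% in R1 and 11.9% to 35.1% in haploid libraries (arm difference -5.28, SE 0.58, adjusted p = 2.28e-08). miR-455-3p rose by 3.91 (GC-adjusted 3.14) while miR-455-5p had a difference of -1.36 (GC-adjusted -0.57, adjusted p = 0.152). miR-433 kept 3p as its major arm, but its 5p share fell from 11.5% and 13.9% to at most 0.685% (arm difference -5.10, SE 0.30, adjusted p = 5.19e-13). The arms of miR-18a switched from a 5p share of 91.6% and 89.8% to between 16.5% and 33.7% (arm difference -4.80). Of the other hairpins with both arms at 10 or more mean CPM, miR-382, miR-18b, miR-450b and miR-676 had arm differences of 4.75, -4.75, -4.75 and -4.71.

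**Figure D5:**
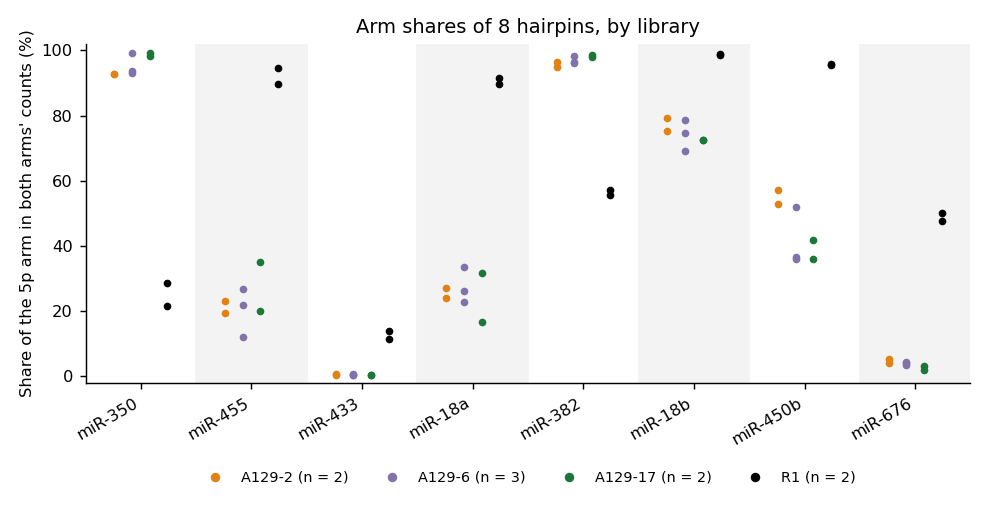
Share of the 5p arm in the counts of both arms (y axis, percent) for the 8 hairpins with the largest called arm differences among those with both arms at 10 or more mean CPM, each point a library, coloured by line. In all 8 the 7 haploid libraries lie apart from both R1 libraries.

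Summing counts over miRNAs with a common seed gave 66 groups with at least 2 tested members. The sums were not fitted with the GC offset. Of these 53 were called (80.3%), 19 higher and 34 lower, and 13 and 30 of them in all 3 lines. The seed CUCAAAC held miR-290a-5p, miR-292a-5p and miR-293-5p, printed above. The first of these has the antisense miR-290b-3p and the next the antisense miR-292b-3p, so their reads are uncertain. The group's sum was 260377 to 815005 CPM in haploid libraries and 232615 and 228838 in R1, a log2 difference of 1.10 (SE 0.37, adjusted p = 0.016) that was not called in every line. Within it miR-293-5p fell from 91521 and 91390 CPM to between 1765 and 3221 (log2 -5.27, SE 0.24, adjusted p = 8.54e-11; GC-adjusted -3.09), miR-292a-5p rose (1.83, SE 0.39, adjusted p = 0.000688; GC-adjusted 1.92) and miR-290a-5p was not called (-0.23, SE 0.23, adjusted p = 0.382; GC-adjusted 0.56). The seed AAGUGCU, that of the cell cycle promoting miR-291a, miR-294, miR-295 and miR-302 3p strands, fell by 0.88 (SE 0.23, adjusted p = 0.003), from 57671 and 50481 CPM in R1 to between 20545 and 35545.

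Of the named seed groups, CCCUGAG, shared by miR-125a-5p, miR-125b-5p and miR-351-5p, rose with all 3 members from 298 and 266 CPM to between 1678 and 2503 (log2 2.87, SE 0.28, adjusted p = 4.21e-07). AUGCACC of miR-500-3p and miR-501-3p rose by 4.31 (SE 0.41, adjusted p = 3.89e-07). The seed GUGCAAA of miR-19a-3p and miR-19b-3p fell by 6.65 on the log2 scale (SE 0.42, adjusted p = 4.27e-09), and CAGUGCA of the miR-148/miR-152 family fell by 4.16 (SE 0.19, adjusted p = 2.21e-10). GGAAGAC, of miR-7a-5p and miR-7b-5p, fell by 4.52 (SE 0.38, adjusted p = 8.15e-08), and AACACUG, of miR-141-3p and miR-200a-3p, by 3.74 (SE 0.20, adjusted p = 9.33e-10). In 10 groups members were called in both directions.

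The 3 lines differed among themselves in 29 of the 735 miRNAs (3.95%; edgeR's F-test over the lines), 14 of them among the shared changes. Libraries of 1 line differed too. The correlation of log2 CPM was 0.984 between A129-6 replicates 1 and 2, but 0.964 and 0.961 with replicate 3. It was 0.973 in A129-2, 0.961 in A129-17 and 0.994 in R1. miR-292a-5p took 40.7%, 38.9% and 56.9% of counts in A129-6 replicates 1, 2 and 3, and 56.5% and 50.7% in A129-17. miR-149-5p rose in each line, at 126 and 94.2 CPM in A129-2, 128, 149 and 164 for A129-6 and 318 and 314 for A129-17, against 50.6 and 48.2 in R1, so that A129-17 was the highest line (log2 1.80, SE 0.27, adjusted p = 2.97e-05; GC-adjusted 0.71). GC-adjusted it was not called in every line, at 0.02 in A129-2, 0.63 in A129-6 and 1.48 in A129-17. The count of 29 moved with single libraries, from 0 without A129-6 replicate 1 or without A129-6 replicate 2, to 9 and 6 without A129-2 replicate 1 and replicate 2, to 80 without A129-6 replicate 3. Among 29 miRNAs with a count in both R1 libraries and none in any haploid library, miR-701-5p had the most, 25 counts, and was at least 20.5-fold lower by the floor of 3 counts over the haploid libraries.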

How the data were processed

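Per the labels' protocols, small RNA libraries were made by adapter ligation, PCR and size selection on a gel. The authors deposited raw read counts per miRNA, with no normalisation. The tools listed per the submitters' processing notes were Bowtie 0.12.9 and DESeq2. Not given in the sources used here: build, miRBase release, strand use, and how reads with several matches were treated.

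The 9 ESC libraries were fitted together in R 4.3.3 with edgeR 4.0.16, without the spermatid libraries, which are not analysed here. Low rows were removed with filterByExpr at a count of 10 and a total of 15. TMM scaling was followed by the two-sided quasi-likelihood F-test on group means, as the mean of 3 line coefficients against R1 and as each line against R1. p-values were adjusted by Benjamini-Hochberg over all tested rows. SE was derived from the test, as the absolute log2 difference divided by the square root of its F statistic. Arm usage used edgeR's diffSpliceDGE. On simulated data the single-row test recovered the changes put in, and the arm test made somewhat more false calls than its nominal rate. The changes put in were fewer than those called here, balanced in direction and smaller than the largest seen. The scaling under differences like those of the data was therefore not tested. The GC offset was a loess curve per library (span 0.75) over rows with a RefSeq sequence, 82.9% of those tested. Alternatives were RLE, upper-quartile and total-count scaling, scaling without the miR-290 cluster, no filter and a stricter filter (10 CPM in 2 libraries), DESeq2 1.42.0, counts summed per line, a replicate block, rows with a mouse miRBase name alone in the fit, and each library left out. Floors and intervals cover counting error only, since PCR reads are not independent molecules.

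miRNAs were named as the 10 largest shared rises and falls at 100 CPM or more, ranked by the line nearest to R1, the 5 most abundant per cell type, the most abundant member of each list and the most abundant called ones where its members moved both ways, the 8 largest called arm differences with both arms at 10 or more mean CPM, 15 seed groups, and the 5 shared changes that differed most between lines. Others are further list members, chosen after their values were seen. The comparison, the members and the lists were chosen with earlier results of these data known.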

Additional observations from a re-analysis of the deposited data

Results flagged for a closer look

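Of the miRNAs named in the text, 9 were singled out because the 3 haploid lines differed from each other under the same contrast with R1, by edgeR's F-test over the lines. The adjusted p was 0.0394 for miR-149-5p, miR-210-3p, miR-322-5p, miR-335-3p, miR-465c-5p, miR-504-5p and miR-871-3p, 0.0405 for miR-470-5p and 0.0406 for miR-465a-3p. In the order A129-2, A129-6, A129-17, the log2 difference from R1 for miR-504-5p was 6.69, 5.27 and 6.16. For miR-210-3p it was -4.22, -2.02 and -4.09, for miR-149-5p 1.16, 1.58 and 2.68, for miR-322-5p -1.14, -2.51 and -3.63, and for miR-335-3p -2.81, -2.65 and -4.29. The 4 members of the X-linked testis cluster were least raised in A129-2, with 4.59, 6.60 and 5.97 for miR-470-5p, 3.95, 6.15 and 5.92 for miR-465a-3p, 2.85, 4.89 and 4.24 for miR-465c-5p, and 3.91, 6.15 and 5.59 for miR-871-3p.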

How the results depend on the processing

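For 92 named miRNAs, 1673 of 1824 values under the alternatives kept their direction and side of the threshold, 106 lost the call, 25 gained it and 20 changed direction. Under RLE scaling and DESeq2, which moved the median of all miRNAs by -0.24, let-7f-5p was at -0.030, miR-30d-5p at -0.00894 and miR-130b-5p at -0.087. The last ran from -0.055 without A129-17 replicate 2 to 0.25 without A129-2 replicate 1 when single libraries were left out. Upper-quartile scaling (shift 0.32) put miR-143-3p at 0.024 and miR-382-5p at 0.11, and the stricter filter put them at 0.031 and 0.11. With the GC offset, let-7g-5p was at 1.71, miR-127-3p at -0.27, miR-200b-3p at 0.29, miR-26a-5p at 0.45, miR-181d-5p at 0.54, miR-99b-5p at -0.94, miR-881-3p at 1.83 and miR-450b-3p at 1.53. The cause of these changes was not tested, other than that the offset reduces the trend with GC. Total-count scaling shifted the median by -0.13.

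The 522 calls were 402 to 562 over the settings without that offset, the lowest without R1 replicate 2 (fewer R1 libraries) and the highest without the 2 libraries of lowest TMM factor, an alternative chosen after seeing the data. The GC offset, on 609 miRNAs, gave 404. The 131 arm calls were 81 and 82 without an R1 library and ran from 81 to 137 over all libraries left out in turn. The 29 differences between lines were 0 with total-count scaling, 3 with the stricter filter and 0 to 80 when single libraries were left out. Deviations from the group mean correlated at r of -0.177 to 0.139 for same-numbered libraries and -0.180 to 0.180 for other numbers. In a group of 2 libraries these deviations mirror each other, which ties the ranges together. They therefore cannot decide whether the numbers pair the libraries. With a replicate block 523 miRNAs were called and 72 between lines.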
